A study of Mus musculus with 3 samples.

Results

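The genes described here are Tnfsf11, Tnfrsf11b and Tnfrsf11a, which encode RANKL, osteoprotegerin (OPG) and RANK. They were taken by symbol from the deposited count tables and are 3 of 32285 genes listed there. The samples were Alcam+Sca-1- bone-lining cells (BLCs) of wild-type mice, released from crushed and flushed long bones and iliac bones with collagenase and sorted as CD45-, Ter119-, CD31-, Sca-1- and Alcam+. They form 1 group of 3 droplet single-cell RNA-seq libraries, replicates 1 to 3, with no treatment. The labels do not give the age, sex or strain of the mice, how many mice were pooled, or a batch, and the study's methods describe young adult mice without tying an age to a library. Thus the spread between these libraries may be technical in part. The p-values take the library as a block. They rest on how differences between populations vary from library to library, which may be technical in part too. All comparisons made here set cell populations against each other within those libraries.

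RANKL is the cytokine that drives macrophage-lineage precursors to become osteoclasts, the cells that resorb bone, and it acts by binding RANK on those precursors. OPG is a secreted decoy receptor: it binds RANKL and keeps it from RANK, so the balance of RANKL to OPG in the cells around bone sets how strongly osteoclasts are driven. In bone, RANKL has been described in marrow stromal cells, osteocytes, osteoblasts and hypertrophic chondrocytes, and OPG in osteoblasts, B cells and cartilage.

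In build GRCm38 (mm10; GENCODE M21), Tnfsf11 (ENSMUSG00000022015) spans chromosome 14, 78277445 to 78308043, on the minus strand, with 5 exons. Tnfrsf11b (ENSMUSG00000063727) spans chromosome 15, 54250619 to 54278484, on the minus strand, with 5 exons. Tnfrsf11a (ENSMUSG00000026321) spans chromosome 1, 105780718 to 105847981, on the plus strand, with 10 exons in its principal transcript. No other annotated gene overlaps any of them. The values are unique molecular identifiers (UMIs), 1 per captured transcript, read from the 3′ end, so levels are given without division by gene length. Levels are in CPM, counts scaled to a common library total, computed over a population's summed UMIs. A ratio between genes still rests on how well each transcript is captured.

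After filtering, 2476, 6363 and 9393 cells of replicates 1, 2 and 3 were kept, 18232 of 20307 barcodes, with a median of 5618, 9721 and 5815 UMIs per cell. The libraries shared 5 to 24 barcodes pairwise. The cells fell into 27 clusters, made without the 3 genes and without the 49 genes of their pathway lists. 24 clusters were named from marker lists, and 3 stayed unnamed. Cluster 1 was led by Cytl1, Dkk1, Ibsp, Col10a1 and Dhrs9, with Prg4 further down its leading genes. Cluster 17 was led by Sfrp2, Mfap4, Postn, Aspn and Mmp13. Cluster 16 was a blood cluster led by Prss34, Mcpt8, Ccl4 and Il1b. Most cells carried cartilage genes. The superficial cartilage-like cells (5924, with Prg4 at 80909 ± 21604 CPM, mean ± SD, n = 3 libraries) and the chondrocyte-like cells (6340, with Acan at 2450 ± 887 CPM) outnumbered the 961 osteoblast-like cells (Bglap 26961 ± 12059 CPM) and the 767 CAR-like cells (Cxcl12-abundant reticular; Cxcl12 17542 ± 1104 CPM). 1138 cells were blood-like in spite of the gate. Alcam RNA was seen in only 7.28% to 12.1% of the cells of a library, and Ptprc (CD45) RNA in 1.76% to 5.78%. Replicate 1 stood apart: 23.7% of its cells were CAR-like, against 1.19% and 1.12% in replicates 2 and 3, and 4.93% were chondrocyte-like, against 43.4% and 36.8%.

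The ligand was sparse, and its highest levels lay in a small population. Tnfsf11 gave 628, 192 and 164 UMIs in replicates 1, 2 and 3, and a UMI was found in 213 cells (8.60%, exact 95% interval 7.53% to 9.78%), 104 cells (1.63%, 1.34% to 1.98%) and 88 cells (0.937%, 0.752% to 1.15%). These intervals, and all others given here, cover counting error only. In CAR-like cells, the perivascular stromal cells that make Cxcl12 and stem cell factor, Tnfsf11 stood at 144, 188 and 255 CPM (195.8 ± 55.8, n = 3), with a UMI in 25.9%, 39.5% and 29.5% of the cells. These were the highest levels of any population in all 3 libraries. In erythroid-like cells, which should lack the gene, it was seen in 1 of 436 cells, with a median depth of 5031 UMIs against 5639 in CAR-like cells. When each cell was thinned to 1000 UMIs, leaving out 21, 1 and 6 shallower CAR-like cells and 54, 11 and 24 erythroid-like cells, the share in CAR-like cells was 14.1% ± 4.8 and the share in erythroid-like cells was 0%.

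Within the CAR-like population expression was uneven between cells. 213 of the 767 cells had a Tnfsf11 UMI, with a median of 2 UMIs in those cells. 90 of them had a single UMI and the highest had 22. With the libraries pooled, the top 5 cells held 13.8% of the UMIs. By library, the highest cell held 22 of 502, 20 of 90 and 16 of 96 UMIs in replicates 1, 2 and 3. The levels of replicates 2 and 3 thus lean more on single cells.

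Cluster 17 was next, at 74.6, 25.0 and 28.1 CPM (42.6 ± 27.8), with a UMI in 15.1%, 10.4% and 9.23% of its 218, 48 and 65 cells. Replicate 1 was the high sample there, and the mean without it was 26.5 CPM. The ranges of cluster 17 and of CAR-like cells did not overlap, and cluster 17 lay above chondrocyte-like, osteoblast-like and superficial cartilage-like cells in each library. Below cluster 17 the order of populations could not be read, because neighbouring means differed by less than their SD. Schwann-like cells had 9 UMIs in all, every one from 4 cells of replicate 1. Chondrocyte-like cells stood at 19.0, 1.40 and 1.78 CPM, and only replicate 1, with 122 such cells, was high. In replicate 1, 48.4% of the chondrocyte-like cells lay in cluster 12, against 9.59% and 12.1% in the other libraries, and 10 of the 13 UMIs came from that cluster. Osteoblast-like cells had 6 UMIs in 961 cells (6.63, 2.03 and 1.80 CPM). Superficial cartilage-like cells had 32 UMIs in 5924 cells (2.70, 1.12 and 0.238 CPM). Of these UMIs, 31 lay in the 924 cells of cluster 9, at 12.0, 8.58 and 1.46 CPM in replicates 1, 2 and 3. In replicate 1, a single cell held 8 of the 10 UMIs. Tendon-like cells had 0 UMIs in 140 cells, which allows up to 7.66, 8.90 and 19.4 CPM in replicates 1, 2 and 3 (3 counts over the population's UMIs).

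Counts of Cxcl12, the main transcript of CAR-like cells, were set beside those of Tnfsf11. CAR-like cells had 8.59, 10.0 and 14.96 Tnfsf11 UMIs per 1000 Cxcl12 UMIs. Chondrocyte-like cells had 361, 513 and 411, and cluster 17 had 111, 250 and 571. These ratios were higher than in CAR-like cells but rest on few counts, such as 13 ligand and 36 Cxcl12 UMIs in the chondrocyte-like cells of replicate 1 and 8 and 14 in cluster 17 of replicate 3. The part of free RNA was not tested. The erythroid-like cells of replicate 1, with a single ligand UMI, were at 10.6.

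The decoy receptor was abundant and had another distribution. Tnfrsf11b gave 7733, 34643 and 41346 UMIs, with a UMI in 27.1% (25.4% to 28.9%), 61.4% (60.2% to 62.6%) and 59.2% (58.1% to 60.1%) of the cells of replicates 1, 2 and 3. The highest level was in cluster 1, at 3423, 1415 and 1762 CPM (2200 ± 1073), with a UMI in 94.6%, 87.9% and 88.8% of its 37, 778 and 1461 cells. Superficial cartilage-like cells, which carry the lubricating surface of the joint, stood at 1625, 901 and 1033 CPM (1186 ± 386), with a UMI in 78.8%, 78.1% and 71.1% of the cells. In both populations replicate 1 was highest and replicate 2 lowest, and cluster 1 lay above superficial cartilage-like cells within each of the 3 libraries, with counting intervals that did not overlap. The gap between their means was smaller than the SD of cluster 1 over libraries. Chondrocyte-like cells followed at 378, 206 and 249 CPM (277.5 ± 89.6), with a UMI in 47.5%, 56.05% and 49.4% of the cells, and did not overlap with either of the populations above.

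Expression of Tnfrsf11b also differed among the clusters that share a name. Among superficial cartilage-like clusters it ranged from 2072 ± 425 CPM in cluster 5, led by Prg4, Cytl1 and Chrdl2, to 452 ± 293 CPM in cluster 9, led by Htra4, Cdh13 and C1qtnf7. Cluster 23, led by Nos2 and Prg4, stood at 2183 CPM, but 130 of its 133 cells came from replicate 1, so it has no replicate check. It held 22.1% of the superficial cartilage-like cells of that library, 0 cells of replicate 2 and 0.0897% of those of replicate 3. Among chondrocyte-like clusters the range was from 494 ± 108 CPM in cluster 12 to 101 ± 20.4 CPM in cluster 4, which had no cell in replicate 1.

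The remaining populations were low. Cluster 17 stood at 116, 33.3 and 199.95 CPM, osteoblast-like cells at 126, 49.3 and 113 CPM, tendon-like cells at 20.4, 89.0 and 58.3 CPM, and CAR-like cells at 8.32, 25.1 and 58.4 CPM. These ranges overlapped with one another. Erythroid-like cells, taken as the measure of free RNA, stood at 12.4, 33.6 and 24.5 CPM, with a UMI in 4.23%, 11.7% and 11.1% of the cells, and in each library 1 cell held much of this: 29 of 52, 29 of 48 and 10 of 20 UMIs in replicates 1, 2 and 3. CAR-like cells had a UMI in 2.56%, 13.2% and 18.1% of the cells, below the erythroid-like share in replicate 1, near it in replicate 2 and above it in replicate 3. In replicate 3 their level (36.6 to 88.5 CPM) also exceeded the erythroid-like level (14.96 to 37.8 CPM, 1 cell included), with counting intervals that overlapped slightly. Osteoblast-like cells, with a UMI in 12.5%, 14.8% and 17.4% of the cells, lay above the erythroid-like share and level in each library. Their median depth was 3737, 2419 and 1539.5 UMIs, against 4064.5, 10358 and 4937 in erythroid-like cells. These shares were thus not at equal depth. With each cell thinned as above, the share was 10%, 6.02% and 8.60% in osteoblast-like cells of replicates 1, 2 and 3. In erythroid-like cells it was 0.485%, 3.03% and 2.67%, which was lower in each library. Thinning left out 2, 44 and 129 osteoblast-like cells and 54, 11 and 24 erythroid-like cells.

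The order of the leading populations held at equal cell depth. With each cell thinned to 1000 UMIs, a Tnfrsf11b UMI was found in 65.0% ± 10.9 of the cells of cluster 1, 46.2% ± 6.9 of superficial cartilage-like cells, 17.9% ± 3.0 of chondrocyte-like cells and 2.06% ± 1.38 of erythroid-like cells, the same order as in CPM. Thinning left out 2, 8 and 14 cells of cluster 1, 18, 21 and 89 superficial cartilage-like cells and 4, 26 and 25 chondrocyte-like cells. Prg4 served as the source gene for the decoy. Superficial cartilage-like cells had 15.4, 14.0 and 14.1 Tnfrsf11b UMIs per 1000 Prg4 UMIs. Cluster 1 had 391, 174 and 163, and chondrocyte-like cells had 1277, 432 and 376, well above the ratio in superficial cartilage-like cells. Osteoblast-like cells had 20.0, 31.3 and 31.3, also above that ratio in each library, with Prg4 itself at 6310, 1574 and 3611 CPM. The part of free RNA in their Tnfrsf11b level was not tested.

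**Figure D1:**
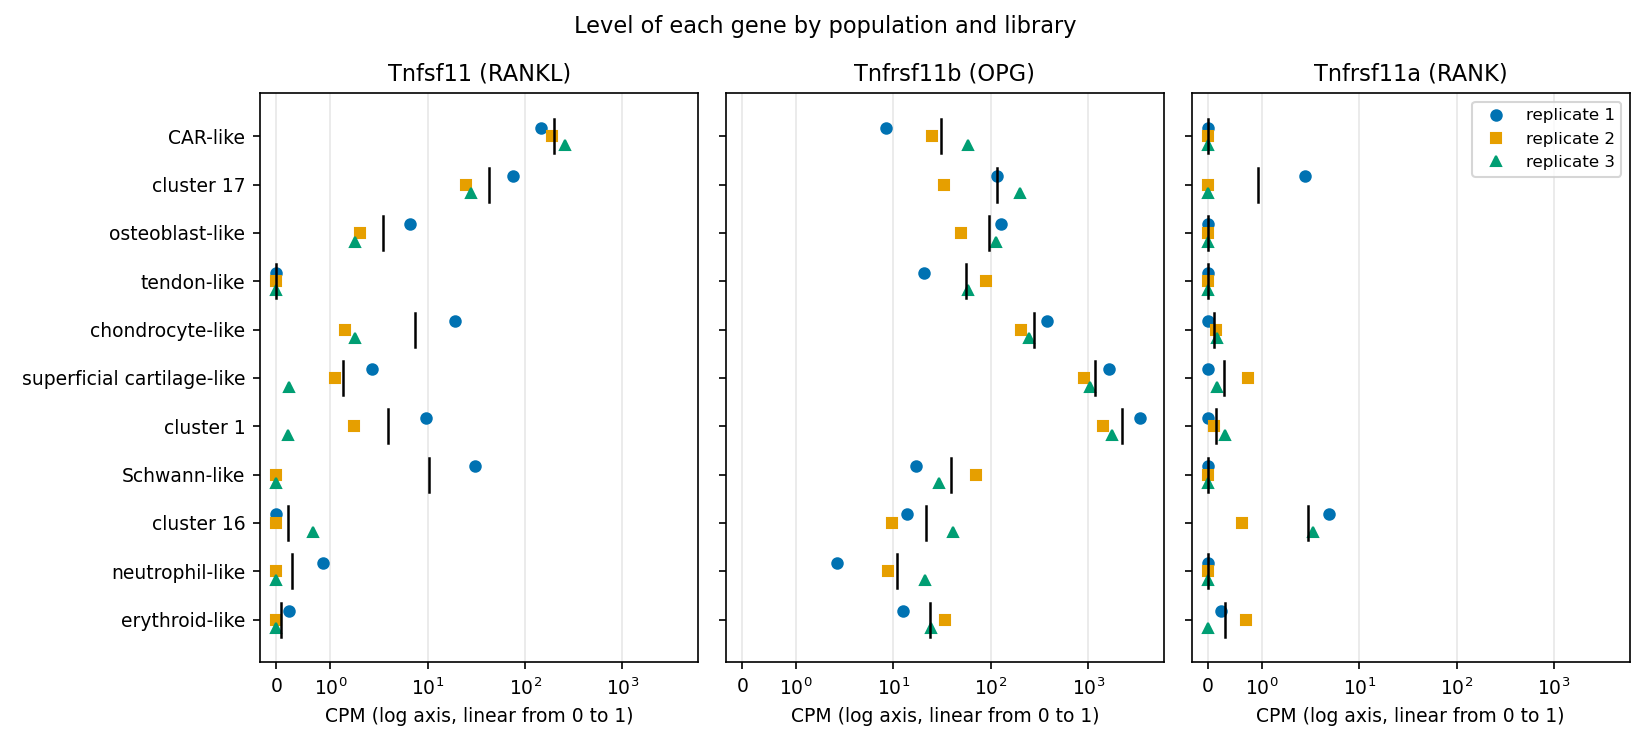
Level of Tnfsf11 (RANKL), Tnfrsf11b (OPG) and Tnfrsf11a (RANK) in CPM by cell population, with 1 point per library and a black bar at the mean of the 3 libraries; the axis is logarithmic above 1 CPM and linear from 0 to 1. RANKL is highest in CAR-like cells (144 to 255 CPM) and OPG in cluster 1 and superficial cartilage-like cells (901 to 3423 CPM), while RANK reaches at most 4.88 CPM in the populations plotted.

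The receptor was almost absent from the sorted cells. Tnfrsf11a gave 12, 21 and 16 UMIs, 49 in all, in 42 cells, and a UMI was found in 0.283%, 0.314% and 0.160% of the cells of replicates 1, 2 and 3. RANK is carried by the macrophage lineage, and the gate was set against CD45+ cells, though blood-like cells passed it. The part of the gate in this low level was not tested. No cluster was named osteoclast-like, and the osteoclast genes were looked up in the blood cluster 16 after the values were seen. Calcr, Oscar, Atp6v0d2 and Mmp9 had 0 UMIs there, while Itgb3 had 68, Dcstamp 20 (4.50 ± 7.25 CPM, the highest mean of any population), Ctsk 16, Acp5 11 and Ocstamp 1. Among populations with 3 libraries, cluster 16 had the highest Tnfrsf11a level, at 4.88, 0.639 and 3.39 CPM (12 UMIs in 8 of 335 cells), and its Csf1r, the receptor for M-CSF on macrophages and their precursors, stood at 55.6 ± 3.0 CPM. Its share of cells with a RANK UMI (2.30%, 1.14% and 3.13%) lay above that of erythroid-like cells in replicates 1 and 3 (0.385% and 0 of 99 cells) and not in replicate 2 (1.30%). Tnfrsf11a had 0 UMIs in CAR-like cells (which allows a UMI in up to 0.512% of those of replicate 1, a limit on cells with a captured UMI and not on cells with the transcript), osteoblast-like, tendon-like, Schwann-like, neutrophil-like and plasma cell-like cells. The superficial cartilage-like and chondrocyte-like cells had 15 and 11 UMIs, at no more than 0.745 CPM in any library. Cluster 1 had 4, cluster 17 had 3, the pericyte-like cells of replicate 1 had 2 (5.98 CPM) and erythroid-like cells had 2. This was too few UMIs for a test, and Tnfrsf11a was not among the 10661 genes that passed the filter on low counts.

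Differences between populations were tested with edgeR's quasi-likelihood test on UMIs summed per population and library, with the library as a block and p-values adjusted over all genes tested. The clusters were made without these genes but from genes that go with them, and 74.2% of the genes tested passed for a difference among the 5 classes compared, so a call on these genes is close to that background. Both Tnfsf11 (adjusted p = 5.76e-08) and Tnfrsf11b (adjusted p = 3.71e-08) were called in that test. A log2 fold change is given with its standard error.

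CAR-like cells differed from chondrocyte-like cells in both genes, and in opposite directions. Tnfsf11 was higher by 6.04 ± 0.62 on the log2 scale (adjusted p = 6.77e-07) and Tnfrsf11b fell by 3.87 ± 0.57 (adjusted p = 2.07e-05), each in 3 of 3 libraries. 48.1% of genes were called in that comparison. Without replicate 1 the difference was 6.83 for Tnfsf11 and -2.78 for Tnfrsf11b, and without replicates 2 and 3 in turn it was 5.28 and 5.14 for Tnfsf11. CAR-like Tnfrsf11b lay below the erythroid-like level in replicates 1 and 2 and above it in replicate 3, as given above.

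Osteoblast-like cells carried little of either transcript. Against CAR-like cells, Tnfsf11 fell by 5.74 ± 0.85 (adjusted p = 6.62e-05) and Tnfrsf11b was higher by 2.45 ± 0.60 (adjusted p = 0.00378), in 3 of 3 libraries each, where 33.4% of genes were called. Without replicate 1 the difference in Tnfrsf11b was 1.51. Against chondrocyte-like cells, Tnfrsf11b fell by 1.42 ± 0.49 (adjusted p = 0.0228, 3 of 3 libraries), a call that was lost without replicate 2 or 3, with DESeq2, without the block and in other settings. 48.0% of genes were called there. The ligand could not be told apart between osteoblast-like and chondrocyte-like cells (0.30 ± 1.28, adjusted p = 0.871), with 6 UMIs in the former.

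Superficial cartilage-like cells had more decoy than chondrocyte-like cells. Tnfrsf11b was higher by 2.32 ± 0.45 (adjusted p = 0.000589, 3 of 3 libraries), in a comparison that called 34.7% of genes, and the difference was 2.26 to 2.38 with each replicate left out. The Tnfsf11 difference was -1.10 ± 0.72 and did not pass the test (edgeR adjusted p = 0.256), but it passed without replicate 1 (-1.05, adjusted p = 0.0300). Of the 32 superficial cartilage-like ligand UMIs, 31 lay in cluster 9, so this is not a level shared by the class. In tendon-like against chondrocyte-like cells Tnfrsf11b fell by 2.54 ± 0.55 (adjusted p = 0.00154, 3 of 3 libraries), where 33.1% of genes were called. The difference was -1.77 without replicate 1 and -3.47 without replicate 2, and with 0 ligand UMIs no fold is given for Tnfsf11. When cluster 17, whose leading genes include the tendon marker Tnmd, was counted as tendon-like, the ligand was instead higher than in chondrocyte-like cells by 3.04 (adjusted p = 0.00272).

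In each library the population with the most ligand UMIs was not the one with the most decoy UMIs, but some populations held part of both. CAR-like cells held 79.9%, 46.9% and 58.5% of the Tnfsf11 UMIs of replicates 1, 2 and 3 while making up 23.7%, 1.19% and 1.12% of the cells. Cluster 17 added 12.9%, 4.69% and 4.88%, and chondrocyte-like cells added 2.07%, 30.2% and 31.1% through their number. In replicate 2, superficial cartilage-like cells and cluster 1 held a further 9.38% and 7.29% of the ligand UMIs. Of the Tnfrsf11b UMIs, superficial cartilage-like cells held 78.0%, 41.9% and 42.1%, and cluster 1 held 13.8%, 33.0% and 39.9%. Chondrocyte-like cells held 3.34%, 24.6% and 17.3%, and CAR-like cells 0.154% ± 0.191 on average. Chondrocyte-like cells were thus a large holder of both transcripts in replicates 2 and 3. Of the 213, 104 and 88 cells with a ligand UMI, 18, 43 and 27 also had a decoy UMI. These were 8.45%, 41.3% and 30.7%, against 28.9%, 61.7% and 59.4% of the cells without a ligand UMI. Among CAR-like cells with a ligand UMI, 1.97%, 13.3% and 9.68% also had a decoy UMI, against 2.76%, 13.0% and 21.6% of the other CAR-like cells. Among the chondrocyte-like cells with a ligand UMI, 8 of 12, 27 of 51 and 19 of 43 had a decoy UMI too. These were 66.7%, 52.9% and 44.2%, against 45.5%, 56.1% and 49.5% of the other chondrocyte-like cells.

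**Figure D2:**
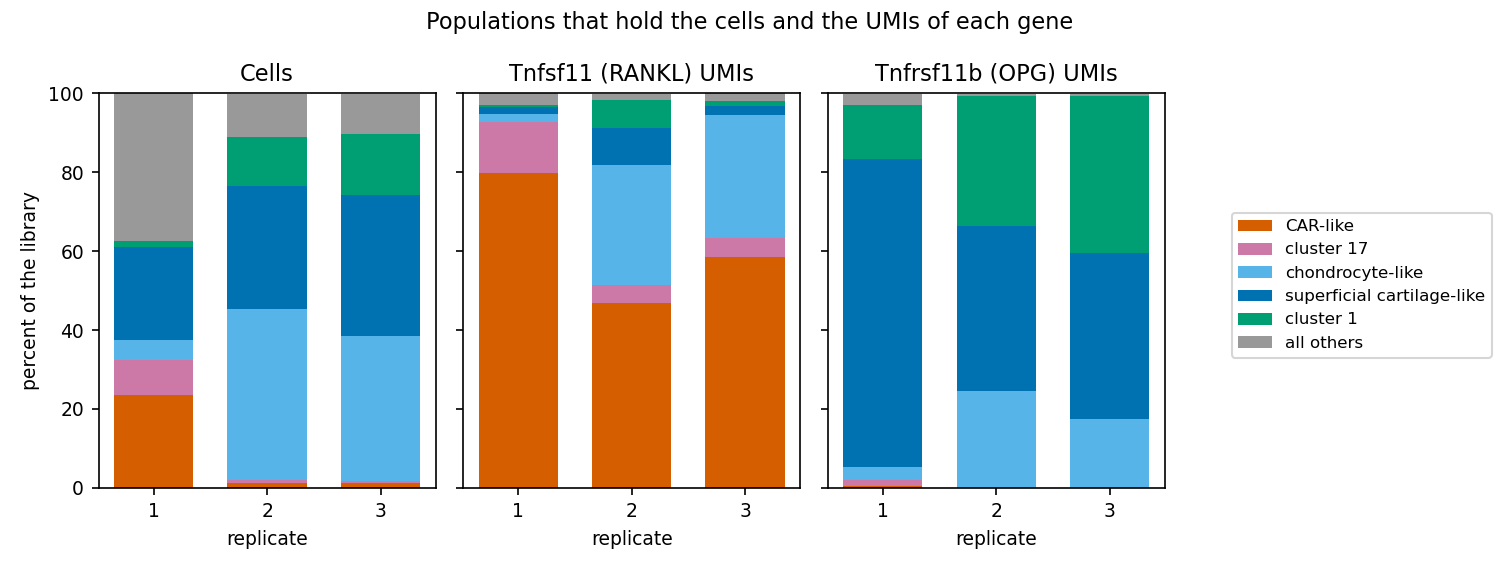
Share of the cells (left), of Tnfsf11 UMIs (middle) and of Tnfrsf11b UMIs (right) held by each population, in percent of each library; the bars add to 100% for replicates 1, 2 and 3. CAR-like cells hold 46.9% to 79.9% of the RANKL UMIs, and superficial cartilage-like cells hold 41.9% to 78.0% of the OPG UMIs.

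The ligand to decoy ratio differed between libraries as their make-up did. Over all cells there were 0.0812 (95% exact interval 0.0747 to 0.0881), 0.00554 (0.00478 to 0.00639) and 0.00397 (0.00338 to 0.00462) Tnfsf11 UMIs per Tnfrsf11b UMI in replicates 1, 2 and 3. Replicate 1 stood far above the others. When 11 populations were given the same share in every library, the ratios were 0.0203, 0.0261 and 0.0264, with replicate 1 lowest. These populations covered 87.5%, 99.5% and 99.8% of the cells of replicates 1, 2 and 3. CAR-like cells were given 9.06%, and UMIs per cell were not scaled for depth. The share of CAR-like cells moved with the ratio of the library, and how that share came about was not tested.

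Within a library the ratio spanned several orders of magnitude between populations. It was above 1 in CAR-like cells in all 3 libraries, at 17.3 (11.9 to 26.1), 7.50 (4.09 to 15.1) and 4.36 (2.72 to 7.29). The decoy counts behind these values were 29, 12 and 22 UMIs, from 8.32, 25.1 and 58.4 CPM against 12.4, 33.6 and 24.5 CPM in erythroid-like cells. Cluster 17 stood at 0.643 (0.480 to 0.857), 0.750 (0.279 to 1.94) and 0.140 (0.0578 to 0.296), with an interval that includes 1 in replicate 2. Schwann-like cells stood at 1.80 (0.542 to 6.84) in replicate 1, from 9 and 5 UMIs, and had 0 ligand UMIs in the others. Osteoblast-like cells stood at 0.0526, 0.0411 and 0.0159, chondrocyte-like cells at 0.0504, 0.00682 and 0.00715, superficial cartilage-like cells at 0.00166, 0.00124 and 0.000230, and cluster 1 at 0.00282, 0.00123 and 0.000121. CAR-like cells lay above all of these populations in each library. The superficial cartilage-like ratio blends unlike clusters. Its cluster 9 had 10, 18 and 3 ligand UMIs beside 654, 494 and 692 decoy UMIs in replicates 1, 2 and 3. Its clusters 2 and 5 had 0 ligand UMIs.

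**Figure D3:**
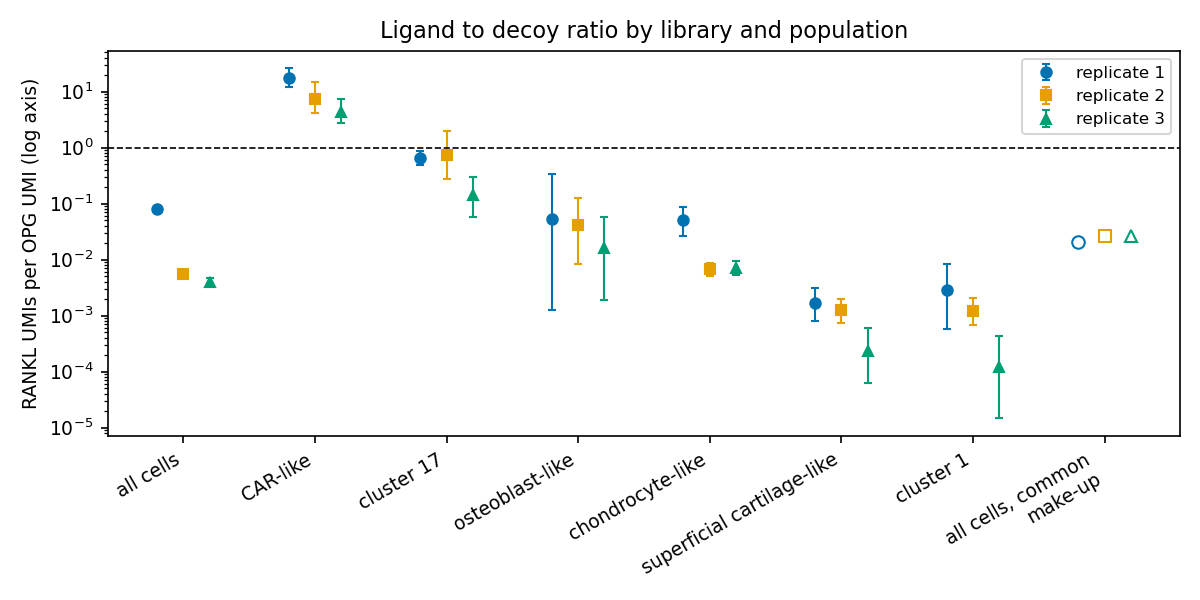
Tnfsf11 UMIs per Tnfrsf11b UMI, on a log axis, by population and library; filled points are measured ratios with exact 95% intervals for counting error, open points give each library with 11 populations set to 1 common make-up, and the dashed line marks 1. Of the populations plotted, CAR-like cells lie above 1 in all 3 libraries, and the spread between libraries over all cells (0.00397 to 0.0812) narrows to 0.0203 to 0.0264 at the common make-up.

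Genes of the osteoclast pathway were followed in 3 lists. The 16 genes of the list of stromal osteoclast factors and RANKL or OPG partners included 13 tested. Against chondrocyte-like cells, 7 of them were higher and 2 lower in CAR-like cells, with a median log2 fold change of 0.87 against -0.02 over all genes tested, of which 48.1% were called. The largest were Cxcl12, which draws blood precursors (higher by 11.12 ± 0.77, adjusted p = 2.28e-09), and Ccl2, which draws monocytes (higher by 10.38 ± 0.99, adjusted p = 1.09e-07). Cxcl12 is also a marker by which the CAR-like class was named, so its value describes the class. Csf1 and Il34, the ligands of the M-CSF receptor that osteoclast precursors need beside RANKL, were looked at after their values were seen: Csf1 stood at 1228 ± 391 CPM in CAR-like cells against 23.2 ± 7.2 CPM in chondrocyte-like cells and Il34 at 384 ± 32 against 16.9 ± 8.2. Both, like Tnfsf11, had their highest mean in CAR-like cells among all populations measured.

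In osteoblast-like against chondrocyte-like cells, 4 of the 13 were higher and 5 lower (median 0.62), where 48.0% of all genes were called. Sema3a, a semaphorin described as restraining osteoclasts, was higher by 5.03 ± 0.62 (adjusted p = 7.27e-06) but from levels of 3.60 ± 3.11 and 0.115 ± 0.099 CPM and in 2 of 3 libraries, while Il6 fell by 4.18 ± 0.80 (adjusted p = 0.000341). In tendon-like cells 5 were higher and 2 lower (median 1.05; 33.1% of all genes called), led by Sema3a (30.9 ± 1.4 CPM) and Ccl2 (376 ± 560 CPM). Superficial cartilage-like cells had 3 higher and 5 lower (median -0.09; 34.7% of all genes called), with Sema3a at 7.98 ± 0.28 CPM and Il6 at 0.722 ± 0.327 CPM, against 21.1 ± 10.9 CPM in chondrocyte-like cells. Against CAR-like cells, osteoblast-like cells had 4 higher and 6 lower (33.4% of all genes called), and Ccl2 fell by 9.72 ± 1.06 and Cxcl12 fell by 9.62 ± 0.75.

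Of the 17 receptors and factors that act on RANKL or OPG transcription, 16 were tested. In CAR-like against chondrocyte-like cells 7 were higher and 3 lower (median 0.30), against 48.1% of all genes called. The leading genes were Ptger4, a prostaglandin E2 receptor (75.9 ± 10.5 against 4.12 ± 2.82 CPM, adjusted p = 6.83e-08), and Vdr, the vitamin D receptor (73.5 ± 37.7 against 8.71 ± 0.08 CPM, adjusted p = 1.48e-06). In osteoblast-like cells 6 were higher and 6 lower (median 0.15, against 48.0% of all genes called), led by the Wnt co-receptor Lrp5 (113 ± 23 against 8.40 ± 1.73 CPM, adjusted p = 9.79e-10) and Vdr (87.1 ± 22.7 CPM). In superficial cartilage-like cells 5 were higher and 6 lower (median -0.21), against 34.7% of all genes called. Runx2, the bone transcription factor, fell by 4.05 ± 0.24 (adjusted p = 2.16e-09) and Ptger4 was higher by 2.03 ± 0.34 (adjusted p = 0.000132). In tendon-like cells 6 were higher and 6 lower (median 0.06, against 33.1% of all genes called), and the interleukin-1 receptor Il1r1 fell by 4.37 ± 0.54 and the oncostatin M receptor Osmr by 3.18 ± 0.26. Osteoblast-like cells, compared with CAR-like cells, had 5 higher and 6 lower (33.4% of all genes called), with Il1r1 at 18.8 ± 1.7 against 699.7 ± 132.9 CPM.

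The list of RANK signalling and osteoclast lineage genes was mostly below the filter, with 7 of 16 tested, and its counts are read against the same shares of all genes called. In CAR-like cells 1 was higher and 1 lower than in chondrocyte-like cells, namely Csf1r (11.8 ± 3.8 against 2.27 ± 0.69 CPM) and Nfatc1, the osteoclast transcription factor (90.7 ± 20.1 against 412.5 ± 108.6 CPM). The cathepsin gene Ctsk was called in tendon-like cells (512 ± 156 against 66.1 ± 20.6 CPM) and in superficial cartilage-like cells (higher by 0.59 ± 0.20). In osteoblast-like cells 1 was higher and 3 lower, and Nfkb1 fell by 2.01 ± 0.35. In superficial cartilage-like cells 2 were higher and 0 lower, in tendon-like cells 2 and 3, and in osteoblast-like against CAR-like cells 1 and 2.

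**Figure D4:**
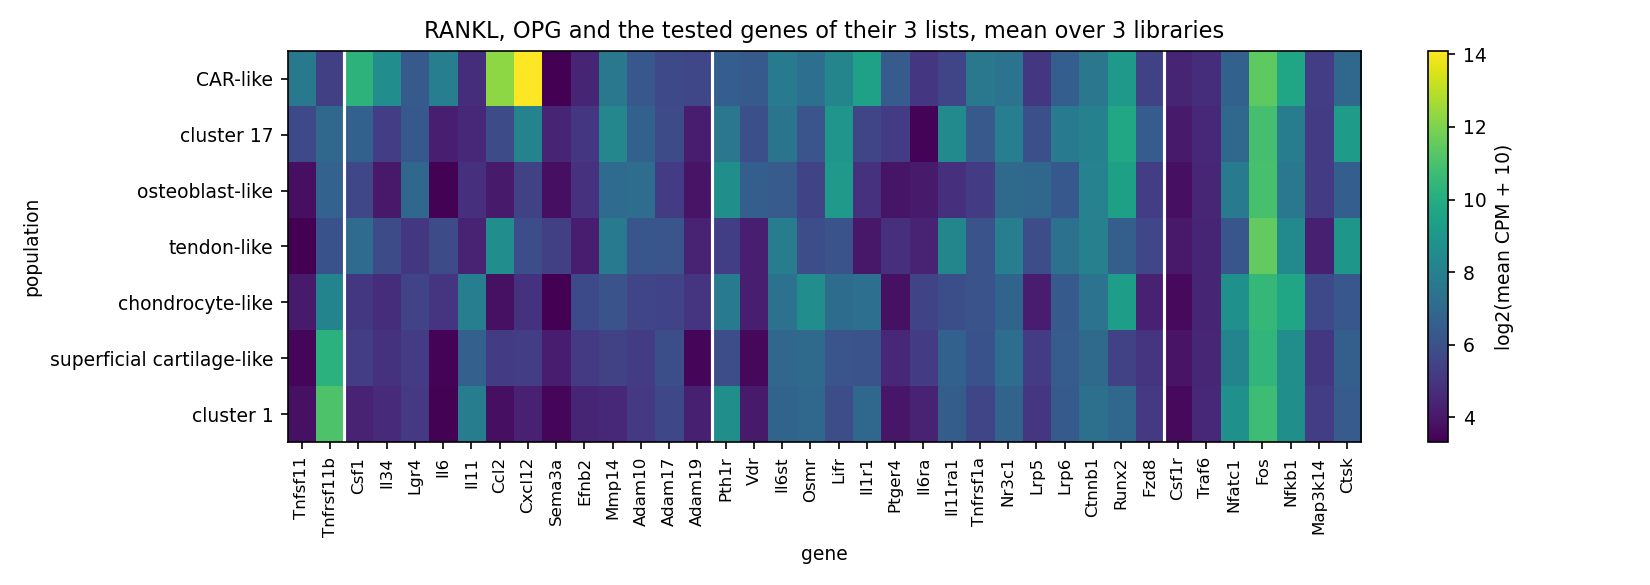
Mean level over the 3 libraries, as log2(mean CPM + 10), of RANKL, OPG and the tested genes of the 3 pathway lists (separated by white lines) in 7 populations; brighter colours are higher levels. RANKL, Csf1, Il34, Ccl2 and Cxcl12 are highest in CAR-like cells, and OPG in cluster 1 and superficial cartilage-like cells.

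The genes whose pattern was most like that of each member were found by Pearson's r of log2(CPM + 10) over 36 sums of at least 20 cells, from 14 populations and 3 libraries, among 14197 genes. Sums from 1 library share its depth and handling, and no test was made. Tnfsf11 was most like Ccn5 (r = 0.947), Fgf7 (0.932), Podnl1 (0.926), Grid1 (0.914) and Adgrf5 (0.913). Tnfrsf11b was most like Lgr6 (0.918), Ndufa4l2 (0.917), Clec3a (0.897), Anxa8 (0.894) and Fzd9 (0.889). Tnfrsf11a, with 49 UMIs, was below the 50 UMIs set for this measure.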

How the data were processed

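The deposited files hold raw UMI counts per gene and barcode, made by the authors with Cell Ranger 7.1.0 on mm10 from droplet 3′ libraries of 3 sorted samples. Whether intronic reads were counted is not given in the sources used here. The study states more cells than the barcodes analysed here. Barcodes were dropped below 200 genes or above 20% mitochondrial UMIs, and the highest Scrublet scores were removed at a rate of 0.8% per 1000 cells (51, 362 and 837), since the automatic threshold marked 12, 1 and 0. Clusters came from scanpy 1.11.5 (2000 variable genes, 30 components, 15 neighbours, Leiden resolution 1) without the 3 genes and their pathway lists. They were rebuilt here and need not match those of the study. The rule that left clusters with tied markers unnamed was set after the clusters and member values were seen.

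Total UMIs were 20985636, 79905165 and 69890252, so replicate 1 has the least depth behind its values. Counts were summed per library and class (at least 20 cells) and tested with edgeR 4.0.16 (quasi-likelihood, TMM, filterByExpr, Benjamini-Hochberg), with the library as a block because the classes come from the same libraries, and DESeq2 1.42.0 as an alternative. The SE is the size of the log2 fold change over the square root of F. The script was tested on simulated data. Shares and ratios have exact 95% intervals. Named pathway genes are, per list and comparison, up to 2 called genes with the largest change, and exceptions are marked. The members, lists and tests were chosen with earlier results of these data known.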

Additional observations from a re-analysis of the deposited data

How the results depend on the processing

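Over 22 results, 162 of 176 values under alternative settings, those leaving out a replicate aside, kept their direction and side of the threshold or stayed close. In osteoblast-like against chondrocyte-like cells, Tnfsf11 reversed to -0.23 with DESeq2 (adjusted p = 0.869) and -0.28 with no doublets removed (adjusted p = 0.867), and Tnfrsf11b no longer passed with DESeq2 (-1.36, adjusted p = 0.0558), with no replicate block, the library unpaired (-1.34, adjusted p = 0.0559), with no doublets removed (-0.77, adjusted p = 0.105) and at 10% mitochondrial UMIs (-1.30, adjusted p = 0.0607). In superficial cartilage-like against chondrocyte-like cells, Tnfsf11 passed with no filter on low counts (-1.14, adjusted p = 0.0140) and with no doublets removed (-3.74, adjusted p = 0.00577), and 6298 genes were called with no filter against 3704. With no doublets removed the classes themselves differed: 5359 cells were superficial cartilage-like against 5924, and 872 were fibroblast-like against 87. Which cells changed class was not tested. Tnfsf11 in tendon-like cells reversed to 3.09 at resolution 0.5 and 3.04 with tied clusters named, an alternative chosen after seeing the data, both of which join cluster 17 to that class. Thinned to 1000 UMIs, mean shares of cells were 1.31% for Tnfsf11 against 3.72%, 25.4% for Tnfrsf11b against 49.2%, and 0.0859% for Tnfrsf11a against 0.252%. The ratio of cells with a UMI was 0.120 against 0.0302 for UMIs. The cause of the other changes was not tested.

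With each replicate left out, osteoblast-like against chondrocyte-like values were -0.38 to 0.58 for Tnfsf11 and -1.71 to -1.25 for Tnfrsf11b, which no longer passed without replicate 2 (adjusted p = 0.148) or 3 (adjusted p = 0.0543). Superficial cartilage-like Tnfsf11 was -2.18 to -1.05. Genes called ranged from 2472 to 6797 for osteoblast-like, 2971 to 5424 for CAR-like, 1240 to 7434 for superficial cartilage-like and 1761 to 3995 for tendon-like against chondrocyte-like cells, 1694 to 4201 for osteoblast-like against CAR-like cells and 4677 to 9672 among all classes, lowest without replicate 2 or 3 and highest without replicate 1. The mean ratio was 0.00475 to 0.0434. A hypertrophic chondrocyte-like class formed only at 10% mitochondrial UMIs. Against chondrocyte-like cells, edgeR gave higher values there for both genes. These were 3.05 ± 0.95 for Tnfsf11 (adjusted p = 0.0334) and 2.40 ± 0.54 for Tnfrsf11b (adjusted p = 0.00366). The share of all genes called in that comparison is not given here.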
